A study of Mus musculus with 12 samples.

Results

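The Fanconi anaemia pathway, the replication checkpoint and homologous recombination were followed through 40 genes in blood progenitors of the fetal mouse liver. The 40 symbols were chosen by name and looked up among 19463 genes. All 40 were found, and all reached the minimum of 20 unique molecules (UMIs) over all plates, from 272 UMIs for Fanca to 14425 UMIs for Topbp1. They were divided into 7 sub-pathways and compared by cycling state and by genotype.

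The cells were LSK cells (lineage-negative, Sca-1-positive, Kit-positive), the fraction that holds haematopoietic stem cells and multipotent progenitors, sorted one per well from C57BL/6J fetal livers at embryonic day 18.5. The 4 double mutant plates were homozygous for Pcna K164R and for loss of Rev1. The 3 Rev1 knockout plates were wild type for Pcna, the 2 Pcna K164R plates were wild type for Rev1, and the 3 WT plates were wild type for both. Pcna K164R removes the lysine of the replication clamp that is ubiquitinated to start translesion synthesis, and Rev1 is a translesion polymerase and scaffold. How the alleles were made and how many fetuses stand behind a plate are not stated in the sources used here, so p-values measure the spread between plates, which may be technical. The plates came from 3 sort sessions, and the second held only Rev1 knockout replicate 1 and double mutant replicate 3.

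When a replication fork meets a DNA crosslink, the Fanconi core complex adds ubiquitin to the pair FANCD2 and FANCI, nucleases unhook the lesion, and BRCA proteins and their partners repair the break from the sister chromatid. The kinase ATR, activated by TOPBP1 and the 9-1-1 clamp, signals through claspin to CHK1, while ATM and the MRE11-RAD50-NBN complex answer to broken ends and signal to CHK2. Loss of Fanconi genes is known to exhaust blood stem cells, and many genes of these pathways are transcribed with the cell cycle under E2F factors.

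Promoter sequence is shown for a few members because most of the genes moved with the cell cycle. RefSeq promoters of build GRCm38.p6 matched 33 of the 40 members, and the 250 bases before the first listed start of each were searched on both strands. The E2F letters TTTCCCGC or TTTGGCGC stood in 4 of the 33 (12.1%), against 1.35% of all 27025 genes in the table. Those 4 were among the 23 matched members that were higher in S-high wells, and 0 of the 8 members tested there and not called held them. This difference was not tested, and 8 members are few. The CHR letters TTTGAA or TTCGAA stood in 3 members (9.09%, against 17.4% of all genes). The CCAAT box stood in 17 members (51.5%, against 34.5%). Such a match is a description of letters and not a site. The 30 bases around each E2F match follow in the direction of transcription, with the match or its reverse complement in capitals. They lie at chr4:43010335-43010364 (minus strand), chr5:150522442-150522471 (plus), chr1:71103163-71103192 (minus) and chr5:110839820-110839849 (plus), 52, 168, 209 and 152 bases before the first listed start. That start can lie inside the annotated gene span, and 23 of the 33 windows reached into the span of their own gene, 8 of them wholly. The Fancg, Brca2 and Chek2 stretches lie inside their genes, past the annotated 5' end, and the Bard1 stretch ends 21 bases before its gene.
Fancg: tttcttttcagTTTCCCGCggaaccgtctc
Brca2: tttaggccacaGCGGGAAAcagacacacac
Bard1: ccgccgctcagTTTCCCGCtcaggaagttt
Chek2: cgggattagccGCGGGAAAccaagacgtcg

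Whole windows are shown for Brca1 and Clspn, the members with the 2 smallest p against cycle-low wells, and for Mus81, whose S-high value was closest to 0. They lie at chr11:101551956-101552205 (minus strand), chr4:126556730-126556979 (plus) and chr19:5488380-5488629 (minus). Capitals mark the CCAAT box, or ATTGG where it lies on the other strand, at -86 in Brca1 and at -69 and -21 in Clspn, and the Mus81 window held none. The Brca1 window lies before the annotated gene, while 23 bases of the Clspn and 10 bases of the Mus81 window lie inside theirs. None of the 3 windows held E2F or CHR letters.
Brca1: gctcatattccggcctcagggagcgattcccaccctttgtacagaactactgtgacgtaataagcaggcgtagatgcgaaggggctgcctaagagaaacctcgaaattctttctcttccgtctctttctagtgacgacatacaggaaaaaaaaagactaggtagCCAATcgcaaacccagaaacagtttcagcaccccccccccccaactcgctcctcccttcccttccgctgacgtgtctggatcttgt
Clspn: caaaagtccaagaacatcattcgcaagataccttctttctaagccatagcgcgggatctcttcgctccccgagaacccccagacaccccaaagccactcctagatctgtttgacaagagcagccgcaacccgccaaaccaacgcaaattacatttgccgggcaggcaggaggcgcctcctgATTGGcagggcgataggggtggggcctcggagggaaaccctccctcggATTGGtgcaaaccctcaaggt
Mus81: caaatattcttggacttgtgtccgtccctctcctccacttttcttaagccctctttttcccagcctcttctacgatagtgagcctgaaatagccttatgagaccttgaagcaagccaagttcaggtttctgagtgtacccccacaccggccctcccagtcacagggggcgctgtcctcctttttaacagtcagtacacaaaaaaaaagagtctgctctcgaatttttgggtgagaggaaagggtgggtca

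Of 4608 wells, 3088 had at least 1000 UMIs and were summed per plate, to 212938 UMIs in double mutant replicate 3 and 2402867 to 11617420 UMIs in the other plates. Double mutant replicate 3 stood apart, with a median of 1730 UMIs per kept well, so that 1 UMI there is 8.68 CPM (UMI counts divided by the plate's total and TMM factor, on the usual CPM scale). Its TMM factor was 0.549, against 0.973 to 1.11 in the other plates, which raises its CPM above counts divided by the total alone. Of the genes of the sort, Kit was detected in every plate, and Ly6a, which encodes Sca-1, had 0 UMIs in double mutant replicate 3. Cd34 and Ptprc, which the sort's name does not include, were also detected in every plate. The targeted gene Rev1 stood at 1.33, 2.50, 8.68 and 13.4 CPM in double mutant plates and 5.62, 1.26 and 3.70 CPM in Rev1 knockout plates, and at 10.5 and 7.51 CPM in Pcna K164R plates, against 10.5, 18.4 and 11.98 CPM in WT plates. The library labelled double mutant replicate 4 (33 Rev1 UMIs) therefore lay in the WT range, and the 8.68 CPM of replicate 3 is 1 UMI. Where the Rev1 deletion lies relative to the counted 3' end is not given, so these counts may not check it.

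Cycling state was read from genes outside the 40. Wells with at least 3000 UMIs were thinned to 3000, scored for 53 S-phase and 62 G2/M genes and divided at the 33rd and 67th percentiles of their own plate. Wells at or above the upper cut of the G2/M score were G2/M-high, whatever their S score. S-high wells reached the upper cut of the S score and were not G2/M-high. Cycle-low wells lay at or below the lower cut of both scores. Of 2811 scored wells, 715 were S-high, 958 G2/M-high and 454 cycle-low, and 1039 lay within 1 UMI of a cut, so the states are ranges of a score and not cell types. The G2/M-high cut ran from a score of 12 in Rev1 knockout replicate 1 to 37 in double mutant replicate 2. G2/M-high wells of different plates therefore differ in score. The 10 plates with at least 10 wells in each state entered the comparisons with cycle-low wells, which leaves out double mutant replicates 3 and 4.

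Most of the genes were higher in cycling wells. In S-high against cycle-low wells, 29 of 37 tested members were higher and 0 lower, with a median log2 fold change of 0.97 against -0.03 over all genes (edgeR's quasi-likelihood test, plate as a block, adjusted p of 0.05). Of 10087 genes tested there 49.5% were called, 24.9% higher and 24.6% lower. In G2/M-high against cycle-low wells, 29 of 38 tested members were higher and 0 lower, with a median of 1.05 against -0.01 over all genes. Of 10506 genes tested there 42.1% were called, 21.8% higher and 20.4% lower. Fanca and Rad51c fell under the filter on low counts in both, and Fancd2 in the S-high comparison, so these counts and medians do not cover every member. Without the filter, 32 of 40 were called in each, against 29.3% and 26.1% of all genes. By name, 26 members passed in both comparisons. Fewer cells transcribing a gene and less of its RNA per cell cannot be told apart in summed counts.

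**Figure D1:**
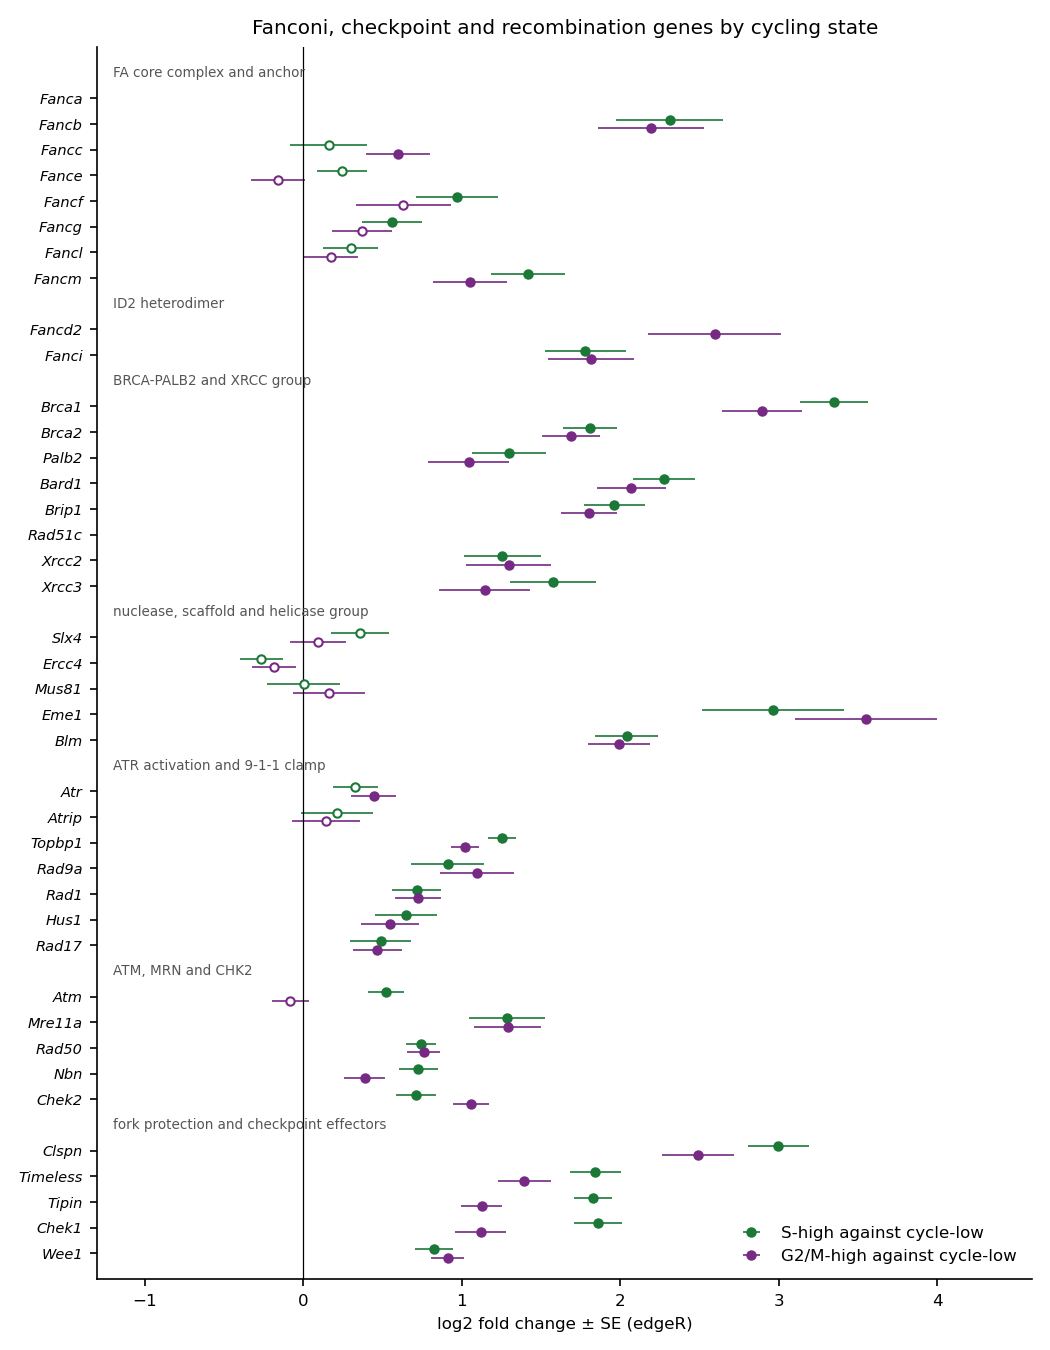
Log2 fold change (± SE, edgeR) of each member in S-high (green) and G2/M-high (purple) wells against cycle-low wells of 10 plates, by sub-pathway, with filled points past an adjusted p of 0.05 and no point for a member under the count filter. Brca1 (3.35 in S-high), Clspn (2.999 in S-high) and Eme1 (3.55 in G2/M-high) lie farthest right, and Mus81, Ercc4 and Atrip lie near 0 with open points.

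The fork protection and checkpoint effectors passed in both states, 5 of 5, with medians of 1.84 in S-high and 1.13 in G2/M-high wells. Claspin (Clspn), which brings CHK1 to ATR, had 65.9 to 112 CPM in S-high wells (median 87.8) and 38.1 to 104 CPM in G2/M-high wells (median 51.7), against 2.87 to 29.1 CPM in cycle-low wells (median 8.19). Neither cycling range overlapped the cycle-low range, and the log2 fold changes were 2.999 ± 0.19 and 2.49 ± 0.23 (SE, 10 of 10 plates, adjusted p = 2.12e-12 and 9.72e-09, edgeR). Chek1, the gene of the CHK1 kinase, had 66.3 to 147 CPM in S-high wells (median 87.7) and 26.01 to 78.4 CPM in G2/M-high wells (median 54.2), against 11.9 to 45.9 CPM in cycle-low wells (median 23.6). Its S-high and cycle-low ranges were separate, its G2/M-high range was not, and the changes were 1.86 ± 0.15 and 1.12 ± 0.16.

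Timeless and Tipin encode the fork protection pair that travels with the replisome. Timeless had 47.4 to 99.7 CPM in S-high wells (median 84.4) and 33.5 to 71.2 CPM in G2/M-high wells (median 61.7), against 5.97 to 29.1 CPM in cycle-low wells (median 22.8). Tipin had 140.4 to 256 CPM in S-high wells (median 175) and 82.5 to 154 CPM in G2/M-high wells (median 112), against 18.3 to 113 CPM in cycle-low wells (median 51.7). Both were separate between S-high and cycle-low plates, at 1.84 ± 0.16 for Timeless and 1.83 ± 0.12 for Tipin, and the G2/M-high values were 1.39 ± 0.17 and 1.13 ± 0.13. Wee1, the kinase that holds CDK1 inactive, had 75.2 to 168 CPM in S-high wells (median 102) and 77.7 to 158 CPM in G2/M-high wells (median 116), against 29.8 to 106 CPM in cycle-low wells (median 59.4). Its ranges overlapped, but each plate was higher in both cycling states, at 0.83 ± 0.12 and 0.91 ± 0.11.

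**Figure D2:**
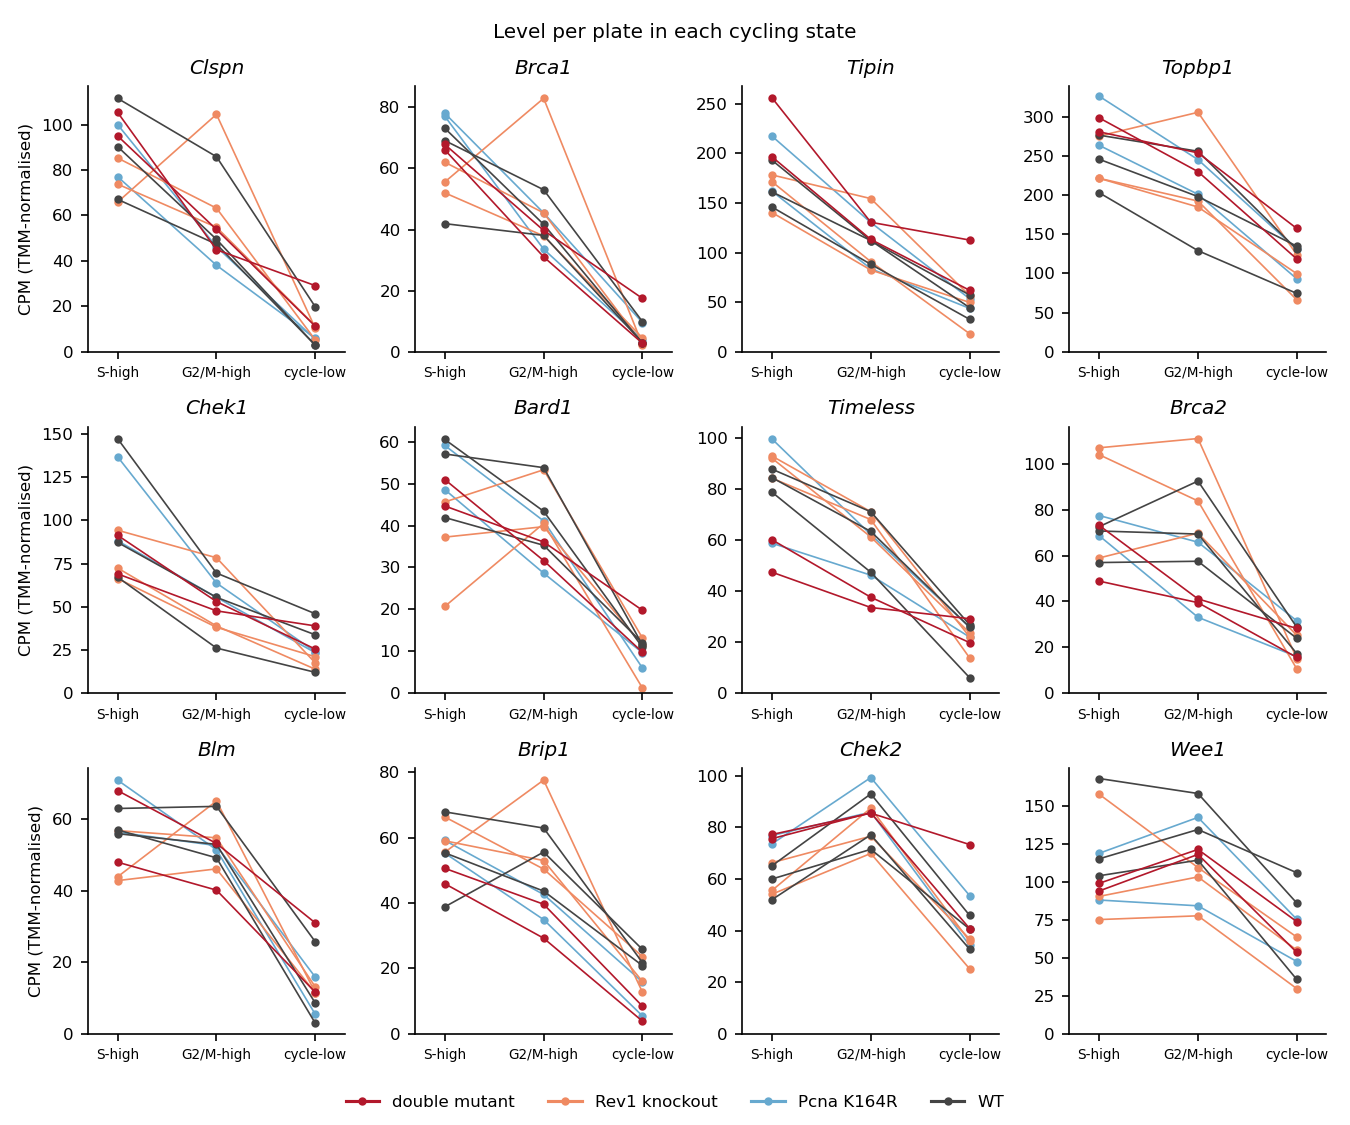
CPM (TMM-normalised, linear axes from 0) in S-high, G2/M-high and cycle-low wells for the 12 members with the smallest p against cycle-low wells, where each line joins the states of 1 of 10 plates, coloured by genotype. Every S-high point of Clspn, Brca1, Tipin and Chek1 lies above every cycle-low point, and every Chek2 line peaks in G2/M-high wells.

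In the BRCA-PALB2 and XRCC group 7 of 7 tested members passed in both states, with medians of 1.81 and 1.69. Brca1, which promotes recombination at resected ends, had 41.9 to 78.0 CPM in S-high wells (median 66.9) and 31.1 to 82.9 CPM in G2/M-high wells (median 40.7), against 2.32 to 17.5 CPM in cycle-low wells (median 3.48). The ranges were separate, and the changes of 3.35 ± 0.21 and 2.90 ± 0.25 rest on 36 UMIs in the cycle-low wells of all 10 plates. Bard1, the partner of BRCA1, had 20.7 to 60.6 CPM in S-high wells (median 47.1) and 28.6 to 53.9 CPM in G2/M-high wells (median 40.1), against 1.16 to 19.7 CPM in cycle-low wells (median 11.2). Brca2, which acts in repair by homologous recombination, had 48.9 to 107 CPM in S-high wells (median 71.8) and 33.1 to 111 CPM in G2/M-high wells (median 67.7), against 10.5 to 31.5 CPM in cycle-low wells (median 20.5). Both genes were separate from cycle-low plates in either state. Brip1, the helicase bound to BRCA1, had 38.8 to 67.9 CPM in S-high wells (median 55.5) and 29.3 to 77.6 CPM in G2/M-high wells (median 47.0), against 3.89 to 25.8 CPM in cycle-low wells (median 16.0), again without overlap. The S-high and G2/M-high changes were 2.28 ± 0.19 and 2.07 ± 0.22 for Bard1, 1.81 ± 0.17 and 1.69 ± 0.18 for Brca2, and 1.96 ± 0.19 and 1.80 ± 0.18 for Brip1. Palb2, the bridge between BRCA1 and BRCA2, had 1.30 ± 0.23 and 1.04 ± 0.25, and the recombination genes Xrcc2 and Xrcc3 had 1.26 ± 0.24 and 1.58 ± 0.27 in S-high wells. Rad51c, with 9 UMIs in cycle-low wells, was not tested.

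The Fanconi core complex moved unevenly, with 4 of 7 tested members called in S-high and 3 of 7 in G2/M-high wells. Fancb had 11.2 to 24.1 CPM in S-high wells and 10.5 to 21.6 CPM in G2/M-high wells, against 0 to 6.87 CPM in cycle-low wells, and rose by 2.31 ± 0.34 and 2.19 ± 0.33. Fancm, the translocase that anchors the complex, rose by 1.42 ± 0.24 and 1.05 ± 0.23. Fancf and Fancg passed in S-high wells at 0.97 ± 0.26 and 0.56 ± 0.19, and had 0.63 ± 0.30 and 0.37 ± 0.19 in G2/M-high wells. Fancc passed in G2/M-high wells at 0.60 ± 0.20 and had 0.16 ± 0.24 in S-high wells. Fancl, the ubiquitin ligase subunit, had 0.30 ± 0.18 and 0.17 ± 0.17, and Fance 0.24 ± 0.16 and -0.16 ± 0.17, none of which passed. Of the substrates of the complex, Fanci had 23.0 to 41.2 CPM in S-high wells and 17.7 to 41.6 CPM in G2/M-high wells, against 2.32 to 21.4 CPM in cycle-low wells. It passed at 1.78 ± 0.25 and 1.82 ± 0.27. Fancd2 passed at 2.60 ± 0.42 in G2/M-high wells, on 13 UMIs in cycle-low wells.

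The nuclease, scaffold and helicase group held 2 members that passed in both states and 3 that passed in neither. Blm, the Bloom helicase, had 42.9 to 71.0 CPM in S-high wells (median 56.6) and 40.2 to 65.1 CPM in G2/M-high wells (median 52.8), against 2.98 to 31.0 CPM in cycle-low wells (median 11.6). Its ranges were separate, at 2.04 ± 0.20 and 2.00 ± 0.20. Eme1, the partner of the MUS81 nuclease, passed at 2.97 ± 0.45 and 3.55 ± 0.45, on 11 UMIs in cycle-low wells, where its median was 0 CPM. Mus81 itself had 3.88 to 15.5 CPM in S-high wells and 4.01 to 20.1 CPM in G2/M-high wells, against 3.97 to 26.8 CPM in cycle-low wells, with overlapping ranges and values of 0.00 ± 0.23 and 0.16 ± 0.23. Ercc4, the XPF nuclease, had -0.27 ± 0.14 and -0.18 ± 0.14, and the scaffold Slx4 0.36 ± 0.18 and 0.09 ± 0.18.

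Among the genes of ATR activation, Topbp1 had 203 to 326 CPM in S-high wells (median 269) and 129 to 305 CPM in G2/M-high wells (median 215), against 66.4 to 157 CPM in cycle-low wells (median 121). Its S-high plates lay above every cycle-low plate, and the changes were 1.25 ± 0.09 and 1.02 ± 0.09. The clamp genes Rad9a, Rad1 and Hus1 and the clamp loader Rad17 passed in both states, with S-high values of 0.91 ± 0.23, 0.71 ± 0.16, 0.65 ± 0.20 and 0.49 ± 0.19. Atr passed in G2/M-high wells (0.44 ± 0.14, adjusted p = 0.0154, edgeR) and had 0.33 ± 0.14 in S-high wells (adjusted p = 0.0571). Its partner Atrip had 0.21 ± 0.23 and 0.14 ± 0.22 and passed in neither.

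In the ATM branch, Mre11a passed at 1.29 ± 0.24 in S-high and 1.29 ± 0.21 in G2/M-high wells, and Rad50, the other core subunit of its complex, at 0.74 ± 0.09 and 0.76 ± 0.10. Nbn passed at 0.73 ± 0.12 and 0.39 ± 0.13. Chek2, the gene of the kinase that ATM activates, had 52.0 to 77.2 CPM in S-high wells (median 65.7) and 69.9 to 99.3 CPM in G2/M-high wells (median 85.6), against 25.2 to 73.3 CPM in cycle-low wells (median 38.7). It was higher in both cycling states in 10 of 10 plates, at 0.71 ± 0.12 and 1.06 ± 0.12, with overlapping ranges. Atm passed in S-high wells at 0.52 ± 0.12 and had -0.08 ± 0.12 in G2/M-high wells.

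Depth and marker genes moved with the states. Median UMIs per well were 10677 to 38590 in S-high and 10698 to 38472 in G2/M-high wells, against 5796.5 to 16842 in cycle-low wells of the 10 plates. With the counts thinned to 3000 UMIs per well and then summed, 14 of 18 tested members were higher in S-high and 14 of 21 in G2/M-high wells, where 33.7% and 22.1% of all genes tested were called in either direction. In unscaled CPM, the 8 HSC markers, none at 0, summed to 455 to 1233 in S-high and 554 to 1163 in G2/M-high wells, against 956 to 2450 in cycle-low wells. The 8 granulocyte-monocyte markers, none at 0, summed to 197 to 2391 and 426 to 10600.2, against 260.2 to 539 in cycle-low wells. The 5 mast cell and basophil markers summed to 5.01 to 50.3 and 3.57 to 285, against 0 to 5618 in cycle-low wells, where Gzmb was at 0. The erythroid markers, 9 of 10 used and none at 0, summed to 240.2 to 2535 and 480.4 to 1662, against 379.5 to 1423 in cycle-low wells. The 4 endothelial markers, none at 0, summed to 24.4 to 70.7 in S-high and 40.3 to 83.8 in G2/M-high wells, against 79.8 to 133 in cycle-low wells, so that the S-high and cycle-low ranges were separate. The megakaryocyte markers, 5 of 6 used and none at 0, summed to 30.2 to 51.3 and 18.6 to 44.7, against 36.6 to 102 in cycle-low wells. The 4 genes Kit, Ly6a, Ptprc and Cd34 summed to 511 to 1100 and 673 to 1233, against 941 to 1637 in cycle-low wells. Only Kit and Ly6a among them belong to the sort. The B cell, T cell, macrophage, lymphoid-primed and hepatocyte lists overlapped between all 3 states. The part of these markers in the results was not tested beyond the next comparison.

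Wells with 3 or more thinned UMIs of any of 7 lineage marker lists made up 51.3% of S-high and 47.7% of G2/M-high wells, against 47.6% of cycle-low wells. Without them, an alternative chosen after seeing the data, 23 of 37 tested members were higher in S-high and 22 of 36 in G2/M-high wells. Over all genes tested the calls fell as well, to 25.8% and 24.4%. In the S-high comparison Chek2, Fancg, Hus1, Nbn, Rad17 and Rad9a were then no longer called. In the G2/M-high comparison Atr, Fancc, Fancd2, Hus1, Nbn, Rad17 and Xrcc3 were not.

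S-high wells were then set against G2/M-high wells in 11 plates, where 26.9% of 10988 genes were called, 13.9% higher and 13% lower. Wells high in both scores stood on the G2/M-high side. Of the 40 members 12 were higher in S-high wells and 4 lower. On the higher side stood 4 of the 5 fork protection and checkpoint effectors, with Tipin at 0.74 ± 0.06 (adjusted p = 3.16e-09, edgeR), Chek1 at 0.75 ± 0.08, Clspn at 0.65 ± 0.12 and Timeless at 0.46 ± 0.07. Tipin, Chek1 and Timeless were higher in 10 of the 10 plates that held all 3 states, and Clspn in 9. Wee1, the fifth, had -0.12 ± 0.07 and did not pass. Brca1 (0.60 ± 0.11), Topbp1 (0.26 ± 0.06), Nbn (0.33 ± 0.08) and Fancm (0.50 ± 0.13) passed as well, and Fance, Fanca and Xrcc3 passed with adjusted p of 0.0188, 0.0288 and 0.0407 (edgeR).

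The kinases of the ATM branch went in opposite directions. Atm had 63.7 to 119 CPM in S-high wells (median 79.4), against 39.1 to 73.4 CPM in G2/M-high wells (median 58.3). It was higher in 10 of 10 plates at 0.59 ± 0.08 (adjusted p = 1.06e-05, edgeR). Chek2 was lower in S-high wells in 10 of 10 plates at -0.30 ± 0.07 (adjusted p = 0.00154, edgeR). Fancd2, Eme1 and Fancc were lower at -0.52 ± 0.19, -0.44 ± 0.15 and -0.38 ± 0.14, with adjusted p from 0.0368 to 0.0475 (edgeR).

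Fewer members passed under several alternatives, and more under some. DESeq2 called 12 of 40 members, against 20.9% of all genes. With thinned counts 6 of 26 tested members passed, which were Atm, Brca1, Chek1, Timeless, Tipin and Topbp1, all higher, against 12.7% of all genes tested. In WT plates alone Chek1, Clspn and Tipin passed, 3 of 38 tested members against 7.52% of all genes. Without the wells rich in lineage markers 9 of 40 members did, 7 higher and 2 lower, against 17.6% of all genes.

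**Figure D3:**
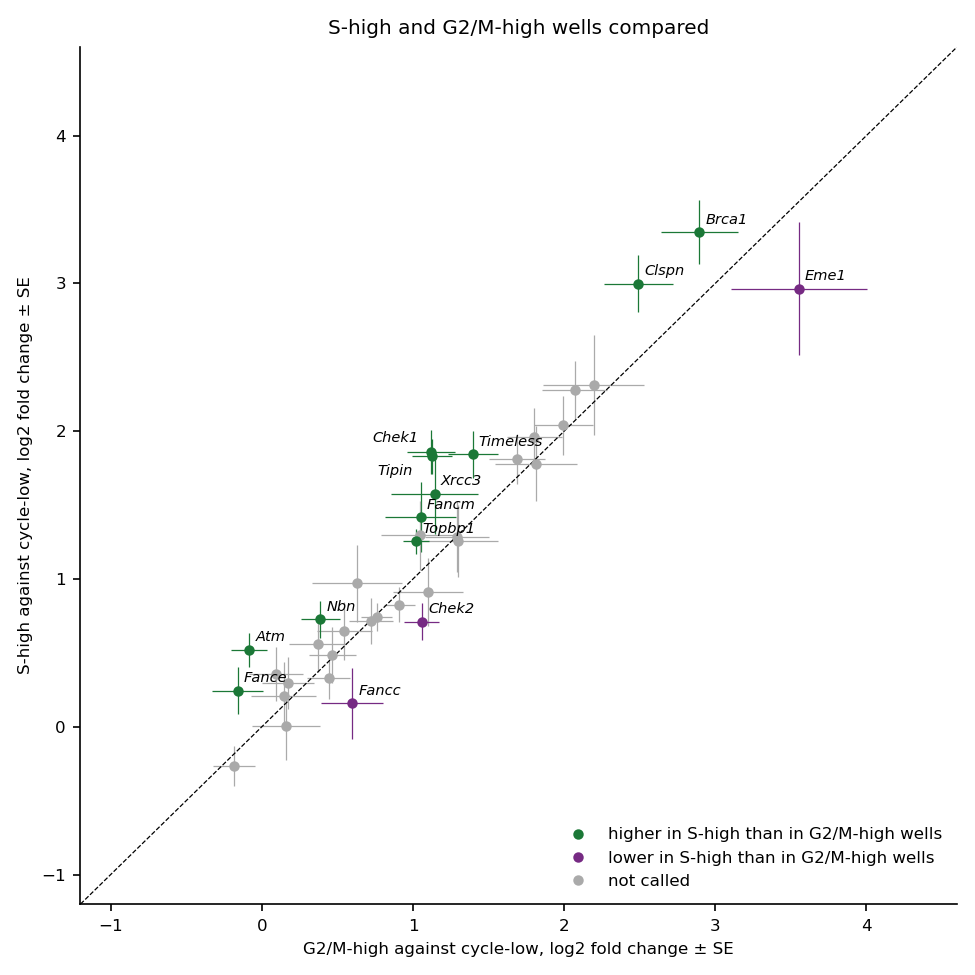
Each point is a member tested against cycle-low wells in both states, with its log2 fold change (± SE) in G2/M-high wells on the x axis and in S-high wells on the y axis, both against the same cycle-low wells. The dashed line marks equal values, colours mark the direct test between the states, and Chek1, Tipin, Clspn and Atm lie above the line while Chek2, Eme1 and Fancc lie below it.

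Of 55 further genes of these pathways 52 were found, and they were counted the same way. In S-high against cycle-low wells 36 of 47 tested were higher and 1 lower, against 24.9% and 24.6% of all genes. In G2/M-high against cycle-low wells 37 of 49 were higher and 1 lower, against 21.8% and 20.4% of all genes. The smallest p in S-high wells belonged to Rpa2, a subunit of the single-strand binding protein RPA, at 1.73 ± 0.11. Usp1, which removes ubiquitin from FANCD2, followed at 1.28 ± 0.09, then Fignl1 at 2.12 ± 0.15, the recombination genes Rad51ap1 and Rad54l at 2.91 ± 0.21 and 2.93 ± 0.21, and Rpa1 at 1.61 ± 0.12. In G2/M-high wells H2afx, the histone variant phosphorylated at breaks, had 2.83 ± 0.12, and Cdc25c, a phosphatase that opens mitosis, 4.31 ± 0.25. Fignl1, Rad51ap1, Rad54b and Ube2t, the ubiquitin-conjugating enzyme of the Fanconi pathway, came next at 1.90 ± 0.15, 2.66 ± 0.22, 2.64 ± 0.25 and 1.90 ± 0.17. The genes that were lower were Trp53bp1, which encodes 53BP1, in S-high wells (-0.80 ± 0.23) and Rad51d in G2/M-high wells (-0.50 ± 0.14).

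Between S-high and G2/M-high wells, 20 of 49 further genes were higher and 7 lower, against 13.9% and 13% of all genes. H2afx, Cdc25b and Cdc25c were lower in S-high wells at -1.66 ± 0.07, -1.98 ± 0.12 and -2.34 ± 0.18. Rpa2 and the end-resection nucleases Dna2 and Exo1 were higher at 0.74 ± 0.08, 0.70 ± 0.08 and 0.63 ± 0.08.

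By genotype, none of the 40 members passed in any comparison of whole plates. One edgeR fit over 12 plates, with sort session as a term, called 4.21% of 12221 genes in double mutant against WT plates and 0 members. DESeq2 called 11.7% of all genes and 0 members as well. In the edgeR fit 4 of 40 members had an unadjusted p under 0.05, against 22.7% of all genes. The members' median log2 fold change was 0.19 against -0.04 over all genes, 32 of 40 lay above 0, and the range was -0.44 (Palb2) to 0.63 (Mre11a). The standard errors ran from 0.178 to 0.565. Rev1 knockout against WT called 0% of genes and 0 members (median 0.04), and Pcna K164R against WT 0% of genes and 0 members (median 0.08). In these fits 1 and 0 members had an unadjusted p under 0.05, against 9.13% and 1.96% of all genes. These comparisons share the WT plates. Double mutant against Rev1 knockout called 1.75% of genes, double mutant against Pcna K164R 0.0409% and the interaction of both mutations 0%. Each called 0 members by edgeR and by DESeq2, which called 6.89%, 0.745% and 0.262% of all genes in these comparisons. At an unadjusted p under 0.05 (edgeR) stood 5, 1 and 2 members, against 19.1%, 9.61% and 5.24% of all genes.

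**Figure D4:**
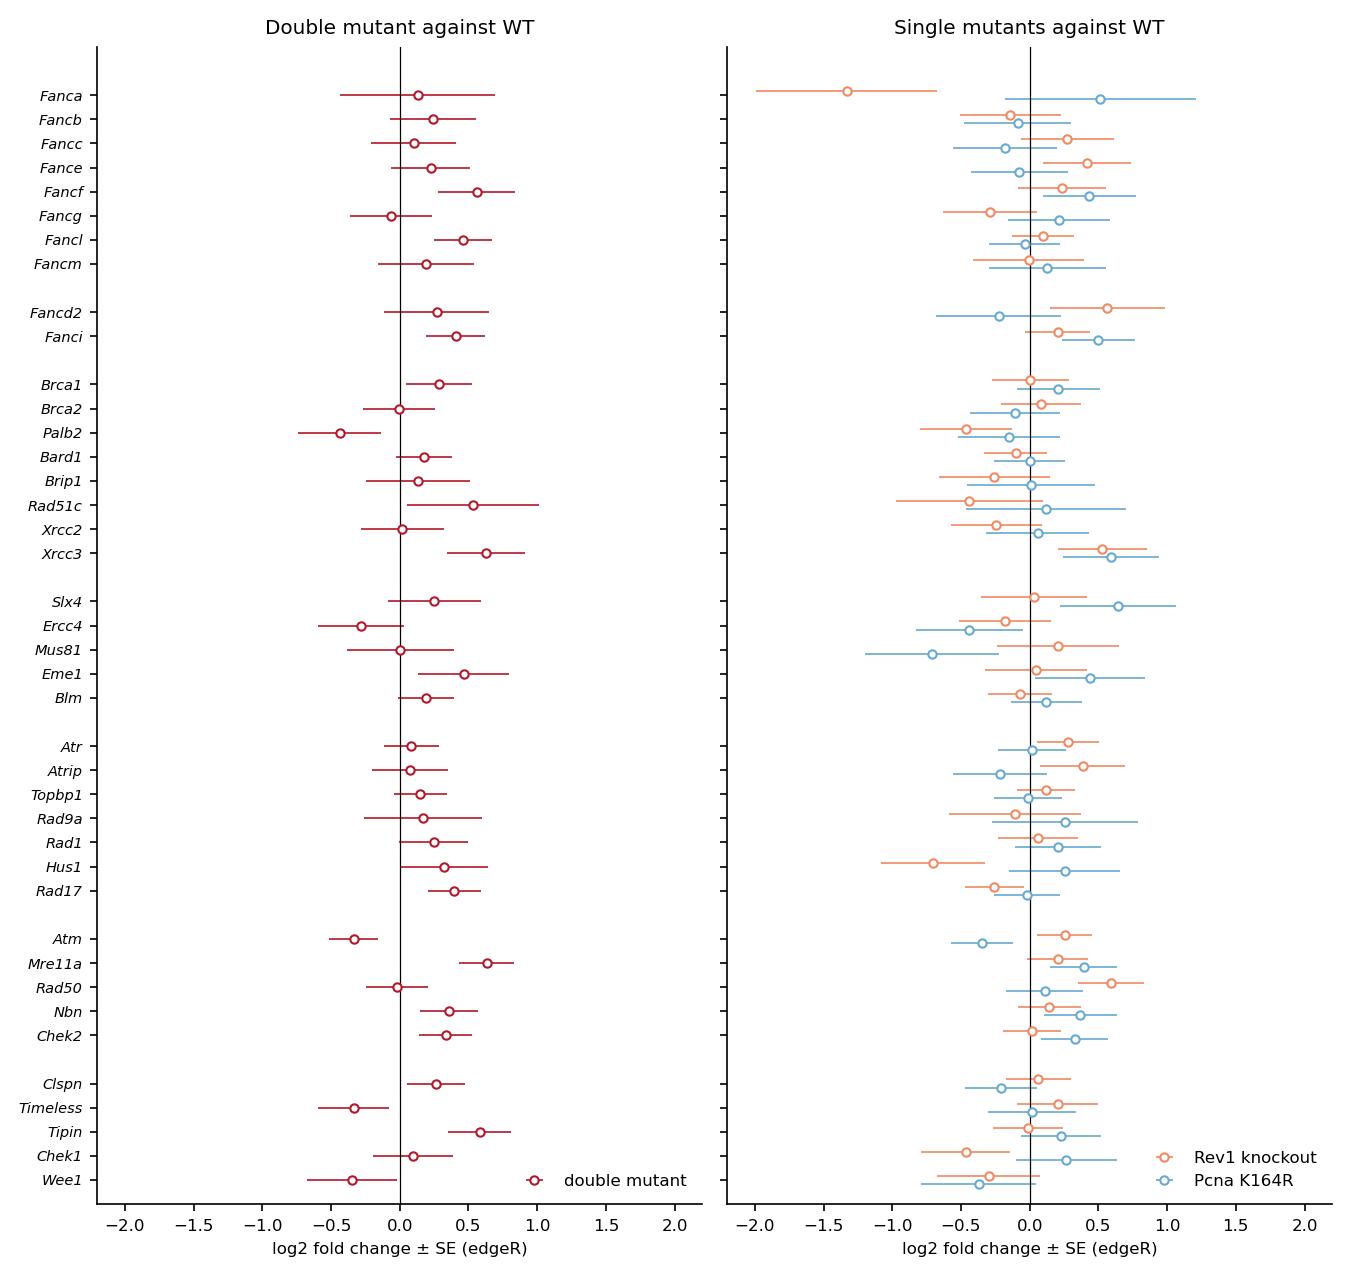
Log2 fold change (± SE, edgeR, 12 plates) of each member against WT plates, for double mutant plates in the left panel and for Rev1 knockout and Pcna K164R plates in the right panel, in the order of the sub-pathways. All points are open because none passed an adjusted p of 0.05, and 32 of 40 double mutant values lie above 0.

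Mre11a, the nuclease of the MRE11-RAD50-NBN complex, had the smallest p in double mutant against WT plates. It stood at 27.3, 30.2, 34.7 and 34.5 CPM in double mutant plates, 24.0, 21.7 and 26.8 CPM in Rev1 knockout plates and 23.1 and 27.3 CPM in Pcna K164R plates, against 20.4, 20.3 and 19.97 CPM in WT plates. Every mutant plate was above every WT plate in CPM scaled by TMM. For double mutant replicate 3, where 1 UMI is 8.68 CPM, this rests on few UMIs and on its TMM factor of 0.549. Without the TMM factors that plate would lie below every WT plate. The difference between double mutant and WT was 0.63 ± 0.20 (adjusted p = 0.0872, edgeR). The annotated span of Mre11a overlaps Ankrd49 on the other strand, and whether counting used strand is not given. Tipin stood at 170.4, 142, 113 and 176 CPM in double mutant plates, against 102, 126 and 84.9 CPM in WT plates. The groups overlapped at the thin double mutant replicate 3, and the difference was 0.58 ± 0.23 (adjusted p = 0.155, edgeR). Without double mutant replicate 3, or without Rev1 knockout replicate 1, which leaves replicate 3 alone in its session, 2 of 40 members were called higher, Mre11a and Tipin. Over all genes 16.2% and 15.9% were called in those fits, a larger share than among the members. Without the library labelled double mutant replicate 4, 0 members and 0.0987% of all genes were called.

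The next 4 genes by p belonged to other sub-pathways and did not pass, with adjusted p from 0.214 to 0.260 (edgeR). The recombination gene Xrcc3 stood at 11.9, 11.2, 17.4 and 21.1 CPM in double mutant plates, against 10.5, 11.2 and 7.62 CPM in WT plates (0.63 ± 0.28). Fancl stood at 34.6, 31.2, 34.7 and 24.3 CPM in double mutant plates, against 21.5, 18.1 and 21.4 CPM in WT plates (0.46 ± 0.21). Xrcc3 overlapped between the groups and Fancl did not. Rad17 stood at 34.3, 38.1, 43.4 and 39.7 CPM in double mutant plates, against 29.9, 31.9 and 24.3 CPM in WT plates (0.40 ± 0.19). The core complex gene Fancf stood at 19.0, 17.9, 8.68 and 17.4 CPM in double mutant plates, against 14.1, 11.9 and 6.90 CPM in WT plates (0.56 ± 0.28). Rad17 did not overlap between the groups and Fancf did. For Fancl and Rad17 the value of double mutant replicate 3 rests on few UMIs and on its TMM factor of 0.549.

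Summed by sub-pathway, double mutant and WT plates overlapped except for the ID2 pair, Fancd2 and Fanci. That pair averaged 37.1 ± 5.16 CPM in double mutant, 30.7 ± 1.76 CPM in Rev1 knockout and 35.5 ± 5.57 CPM in Pcna K164R plates, against 26.1 ± 6.31 CPM in WT plates (SD, n = 4, 3, 2 and 3). The ATM, MRN and CHK2 genes averaged 307 ± 19.0, 343 ± 17.0 and 323 ± 13.2 CPM in double mutant, Rev1 knockout and Pcna K164R plates, against 281 ± 19.8 CPM in WT plates. The fork protection and checkpoint effectors averaged 397 ± 77.0, 347 ± 36.8 and 389.9 ± 15.4 CPM in those mutants, against 380.0 ± 84.5 CPM in WT plates. All 40 members summed to 1694 ± 51.9 CPM in double mutant, 1534 ± 98.3 CPM in Rev1 knockout and 1608 ± 34.5 CPM in Pcna K164R plates, against 1490 ± 219 CPM in WT plates, of which replicate 3 was lowest at 1237 CPM, and every double mutant plate lay above every WT plate. These sums were not tested, and those of double mutant replicate 3 rest on its TMM factor of 0.549.

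**Figure D5:**
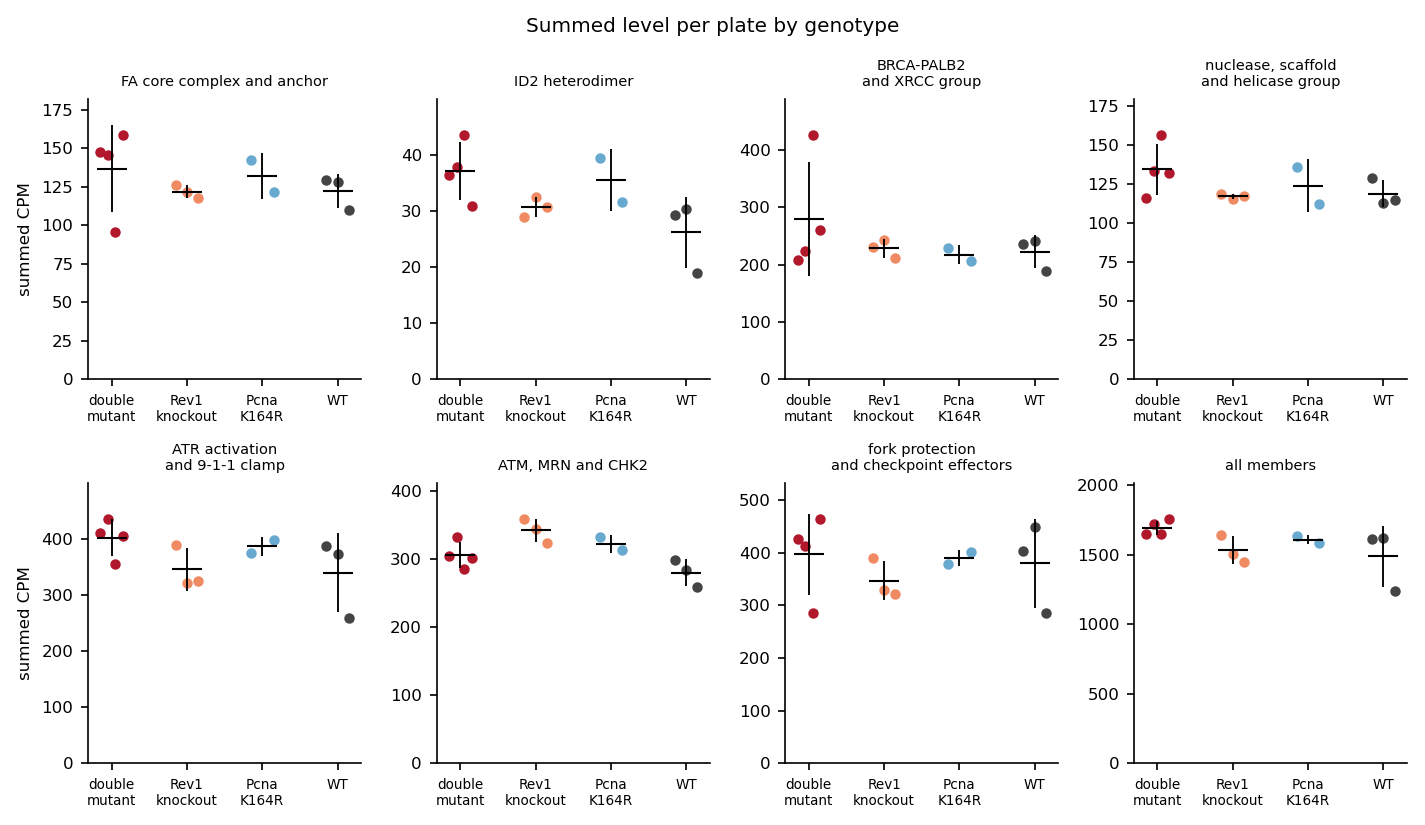
Summed CPM per plate (points), with the mean (horizontal line) and SD (vertical line) of each genotype, for the 7 sub-pathways and for all 40 members, on axes from 0. Genotypes overlap in most panels, and 1 double mutant plate stands at 425 CPM in the BRCA-PALB2 and XRCC panel.

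The share of cycling wells differed between plates. With 1 pair of score cuts for all plates, S-high and G2/M-high wells together made up 77.9%, 82.7% and 91.6% of scored wells in double mutant replicates 1, 2 and 4, and 5.88% of the 17 scored wells of replicate 3. The shares were 40.5% to 57.7% in Rev1 knockout and 62.1% to 70.6% in Pcna K164R plates, against 49.3% to 63.1% in WT plates. The HSC markers summed to 305 to 589.8 unscaled CPM in double mutant plates, against 1146 to 1286 in WT plates. The list of Kit, Ly6a, Ptprc and Cd34 summed to 178 to 687 in double mutant plates, against 947 to 1178 in WT plates. The endothelial markers summed to 14.1 to 44.1, against 58.1 to 76.1. The erythroid markers summed to 521 to 2566 in double mutant plates, against 721 to 1159 in WT plates, and the lymphoid-primed markers to 82.0 to 204, against 479.8 to 600.3. These HSC, endothelial and lymphoid-primed sums and that of Kit, Ly6a, Ptprc and Cd34 did not overlap between double mutant and WT plates. The other 8 lists did, and the part of the lists in the genotype values was not tested. Without the wells rich in lineage markers, double mutant against WT called 0 members and 2.13% of all genes, and the median of the members was -0.00. That fit also left out wells under 3000 UMIs. With all wells of at least 3000 UMIs, 0 members and 5.46% of all genes were called.

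The genotypes were also compared within states set by each plate's own cuts, so the scores of a state differ between plates. Cycle-low wells had S and G2/M scores up to 16 and 20 in double mutant replicate 1 and 15 and 22 in replicate 2. In WT replicates 1, 2 and 3 the limits were 11 and 10, 13 and 10, and 9 and 7. The G2/M-high cut was 33 to 37 in double mutant replicates 1, 2 and 4, against 24 to 30 in WT plates. In Rev1 knockout replicate 1 it was 12, below the cycle-low G2/M limits of double mutant replicates 1 and 2. Within cycling wells, S-high and G2/M-high together, double mutant against WT called 6.28% of 11953 genes and 0 of 40 members (edgeR). The members' median was 0.04, 22 lay above 0, and 7 had an unadjusted p under 0.05, against 25.7% of all genes. Among those 7 were Mre11a at 0.51 ± 0.20, Tipin at 0.48 ± 0.19, Nbn at 0.42 ± 0.16 and Timeless at -0.55 ± 0.21. Of the further genes, 1 passed there, the recombination helicase gene Mcm8 at -0.72 ± 0.19 (adjusted p = 0.0480, edgeR). In double mutant against WT plates as a whole 0 of 51 tested further genes passed, against 4.21% of all genes (edgeR). Of them 3 had an unadjusted p under 0.05, against 22.7% of all genes. Within cycle-low wells, where the double mutant was represented by replicates 1 and 2, 0.113% of 8888 genes and 0 of 26 tested members were called. Of those members 2 had an unadjusted p under 0.05, against 12.3% of all genes. The difference between the cycling effect in double mutant and that in WT plates was called for 0.42% of 10945 genes and for 0 of 40 members. Here 3 members had an unadjusted p under 0.05, against 8.64% of all genes. Each alternative run for these 3 comparisons, with 1 pair of cuts for all plates among them, also called 0 members. Over all genes the alternatives called 0.0252% to 7.98% in cycling wells and 0.067% to 0.766% in cycle-low wells. For the difference in cycling effect, 1 pair of cuts called 1.1% of all genes. DESeq2 was not run for them.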

How the data were processed

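Single LSK cells were profiled by SORT-seq, which counts 3' ends with UMIs, in 12 plates. BWA (version 0.7.15) and the builds GRCm38 and mm10 are named, per the submitters' processing notes, without a role, and whether counting used strand is not given in the sources used here. The UMI counts per gene and well were used as the authors deposited them. The deposited read counts and the authors' estimated transcript counts (expected counts, rounded to whole numbers) served as alternatives. Wells with under 1000 UMIs outside ERCC rows were left out, and no doublet caller was run, since wells were sorted singly. No kept well was identical between plates (0 found). Counts were summed per plate, or per plate and cycling state, and tested with edgeR 4.0.16 (TMM, filterByExpr, quasi-likelihood test, Benjamini-Hochberg adjustment over all genes tested) in R 4.3.3, with DESeq2 1.42.0 as an alternative. The fits were tested on simulated data. The members, lists and tests were chosen with earlier results of these data known. Plate values are given for the 12 members with the smallest p against cycle-low wells and the 6 with the smallest p in double mutant against WT plates, and values for the 6 further genes with the smallest p per state comparison. Other members are given by their values and ranges. Of the 40 members, 18 overlap another annotated gene, so their counts are uncertain. Replicate numbers follow the order of deposit and pair nothing.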

Additional observations from a re-analysis of the deposited data

Results flagged for a closer look

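Within a group of 4 plates, or of 10 plates in 1 cycling state, a plate was singled out where its gap to the nearest other plate was large for the range of the group (Dixon's 95% critical value). This was met in 10 of 100 groups checked, and chance alone gives about 1 in 20. Double mutant replicate 3, the plate with 212938 UMIs, accounted for 5 of them. Clspn stood at 86.8 CPM in that plate, against 63.7 to 64.9 CPM in the other double mutant plates. Brip1 stood at 226 CPM there (26 UMIs), against 31.8 to 39.4 CPM in the others. Chek2 stood at 34.7 CPM, against 75.1 to 81.1 CPM. Wee1 stood at 8.68 CPM, against 96.4 to 102 CPM. Fancf stood at 8.68 CPM, against 17.4 to 19.0 CPM. Chek1 was low in double mutant replicate 1 at 53.0 CPM, against 66.98 to 69.4 CPM in the other double mutant plates. In cycle-low wells of that plate Brca1 was at 17.5 CPM, against 2.32 to 9.91 CPM in the other 9 plates, and Tipin at 113 CPM, against 18.3 to 62.1 CPM. In G2/M-high wells of Rev1 knockout replicate 1 Brca1 was at 82.9 CPM, against 31.1 to 53.0 CPM in the other plates, and the ATM, MRN and CHK2 genes summed to 463 CPM, against 307 to 372 CPM. By its own cuts the G2/M-high wells of that plate began at a score of 12. With 1 pair of cuts for all plates that plate had 11.4% G2/M-high wells.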

How the results depend on the processing

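No paired analysis was possible because the replicate numbers follow the order of deposit and pair no plates. No member called in a state comparison changed direction there under any alternative run. By genotype no member was called, so changes of direction were not counted there. In double mutant against WT, leaving out 1 plate gave 0 to 2 member calls, the 2 being Mre11a and Tipin, both higher, without Rev1 knockout replicate 1 or without double mutant replicate 3. In double mutant against Rev1 knockout it gave 0 to 1, which was Rad50, lower, without Rev1 knockout replicate 1 or without double mutant replicate 3, where 4.52% and 4.57% of all genes were called. With no filter on low counts that comparison called 1 member, Hus1, higher, and 5.73% of all genes. The other genotype comparisons stayed at 0 calls under each alternative run. Of all genes, at most 1.67% were called in Rev1 knockout against WT and 0.186% in Pcna K164R against WT. The highest shares were 1.12% in double mutant against Pcna K164R and 1.25% in the interaction, and some fits called 0%. Leaving out 1 plate gave 28 to 31 calls in S-high against cycle-low wells, 26 to 30 in G2/M-high against cycle-low wells and 11 to 17 in S-high against G2/M-high wells. Of all genes 45.2% to 49%, 37.6% to 41.9% and 21.9% to 29.3% were called in those fits. Thinned counts gave 14, 14 and 6 calls in these 3 comparisons, with fewer genes tested and 33.7%, 22.1% and 12.7% of them called. WT plates alone gave 17, 16 and 3 calls, with fewer plates and 21.7%, 12.2% and 7.52% of all genes called. DESeq2 gave 28, 27 and 12 calls, with 44%, 37.7% and 20.9% of all genes called. Without the wells rich in lineage markers, S-high against G2/M-high wells gave 9 calls, against 17.6% of all genes, and the cause was not tested. Over all genes, double mutant against WT called 514 genes, 0 with flow cell as a term, 1427 with DESeq2, 12 without double mutant replicate 4 to 2074 without Rev1 knockout replicate 1, 1 in session 1 alone, 1339 in session 3 alone and 1 with read counts. Of single named genes, 1260 values kept their side of the threshold and 129 fell short of it. Depth limits the sparse members most: Fanca, Rad51c and Fancd2 had 4, 9 and 13 UMIs in all cycle-low wells.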
